A study of Mus musculus with 5 samples.

Results

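The guanylate-binding proteins (GBPs) and the immunity-related GTPases (IRGs) are GTPases that cells make in large amounts once interferon-gamma has bound its receptor. They were followed here through 10 genes, Gbp2, Gbp3, Gbp5, Gbp7, Igtp, Irgm1, Irgm2, Iigp1, Tgtp1 and Tgtp2, out of 17818 gene symbols measured in mouse hearts. The 10 were picked by symbol from both families, with earlier results for the same hearts known. Those results set animals labelled Tet2+/- against a wild-type (WT) animal and oridonin against vector, so the levels of the 10 in these groups are given as a description.

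RNA came from 5 heart samples of male mice, all bone marrow transplant recipients by their titles, taken 12 months after the transplant. The time label gives treatment for 2 months for all of them. The titles instead give 1 month for replicate 1 of each group and 2 months for replicate 2. A difference between replicates 1 and 2 therefore cannot be told apart from one between the title months. There were 2 hearts from Tet2+/- animals on oridonin, 2 from Tet2+/- animals on vector and 1 from a WT control on vector. Oridonin is a diterpenoid from the herb Rabdosia rubescens, and the series title names the histone demethylase KDM5C as its target. The TET2 protein turns methylated cytosine of DNA into oxidised forms, and its loss in marrow serves as a model of clonal hematopoiesis, the outgrowth of mutant blood cells. The labels do not say whether the Tet2+/- genotype is that of the donor, the host or both, nor name a strain or the share of blood that the donor cells made up. Levels are given as CPM, the counts of a gene scaled to a common library total. Tet2 itself did not separate the labels, at 9.43 and 17.9 CPM in oridonin hearts, 19.2 and 7.76 CPM in vector hearts and 15.6 CPM in the WT heart, so the groups below are those the labels name. Cardiomyocyte markers summed to 55527 to 66587 CPM in each heart, as the tissue label says. Vector replicate 1 stands apart by its atrial markers, at 700 CPM in that heart and 1.68 to 1.78 CPM in the other 4. Each library held 14574823 to 15535778 counts, which puts the floor of 3 counts per library at 0.193 to 0.206 CPM.

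Interferon-gamma, made mainly by T cells and natural killer (NK) cells, signals through the receptor chains Ifngr1 and Ifngr2 and the kinases Jak1 and Jak2 to DNA elements called GAS. The response also raises Irf1, a transcription factor that together with others binds interferon-stimulated response elements (ISREs). GBPs are large dynamin-like GTPases that coat vacuoles holding bacteria or parasites and help to start inflammasome signalling. In mice the IRG family has regulators, Irgm1, Irgm2 and Igtp, which sit on the cell's own membranes and hold the others inactive there. It also has effectors, among them Iigp1 and the Tgtp proteins, which load onto pathogen vacuoles and break them. Loading needs the machinery that attaches ATG8 proteins to membranes, known from autophagy.

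The letters of these elements were looked up in the promoters, because the DNA next to the start site is what the pathway reads. RefSeq promoter windows on GRCm38.p6, from 250 bases before the start site to 50 after it, were at hand for 9 of the 10 genes, all but Iigp1. A gene was counted where at least 1 of its windows held the letters. The ISRE letters searched were GAAANNGAAA and the GAS letters TTCNNNGAA, each on both strands. All 9 genes had ISRE letters, against 3.721% of the 9862 tested genes with a window. Gbp3 has a second, downstream window (chr3:142560106-142560405), which held neither element. GAS letters stood in 6 of the 9 (Gbp5, Gbp7, Tgtp1, Tgtp2, Igtp and Irgm2), against 8.132% of those genes. The stretches around the matches follow, 5′ to 3′ along each gene, with matched letters in capitals. An ISRE on the opposite strand reads as TTTCNNTTTC. In Gbp3 and Irgm1 a pair of overlapping ISRE matches runs together.
Gbp2 (chr3:142620594-142620623, plus strand): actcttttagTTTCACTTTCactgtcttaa
Gbp3 (chr3:142559989-142560024, plus strand): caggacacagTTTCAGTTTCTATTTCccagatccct
Gbp5 (chr3:142496759-142496900, plus strand): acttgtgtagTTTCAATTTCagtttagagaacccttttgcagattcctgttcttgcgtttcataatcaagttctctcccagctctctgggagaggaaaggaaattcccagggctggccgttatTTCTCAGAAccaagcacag
Gbp7 (chr3:142530220-142530302, plus strand): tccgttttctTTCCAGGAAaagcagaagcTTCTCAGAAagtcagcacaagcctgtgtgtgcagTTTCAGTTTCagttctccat
Igtp (chr11:58199501-58199541, plus strand): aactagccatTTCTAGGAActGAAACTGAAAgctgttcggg
Irgm1 (chr11:48871425-48871460, minus strand): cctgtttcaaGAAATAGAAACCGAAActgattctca
Irgm2 (chr11:58214892-58214932, plus strand): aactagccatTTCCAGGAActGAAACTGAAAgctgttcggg
Tgtp1 (chr11:48992304-48992344, minus strand): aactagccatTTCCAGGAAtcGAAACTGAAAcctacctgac
Tgtp2 (chr11:49064263-49064303, minus strand): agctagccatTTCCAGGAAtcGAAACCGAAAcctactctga

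In 4 of the IRG promoters, those of Igtp, Irgm2, Tgtp1 and Tgtp2, the GAS letters were followed after 2 bases by the ISRE letters on the same strand. That composite, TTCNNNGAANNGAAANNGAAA, was found in 5 of the 27025 genes with a window, or 0.0185%. The fifth was Gm12185, a gene model that overlaps Tgtp1 and is named here after its values were seen. The 41-base stretches of Igtp and Irgm2 were the same at 40 positions, those of Tgtp1 and Tgtp2 at 34, and a stretch of the first pair matched one of the second at 31 or 32. None of the GBP windows held the composite. Gbp5 had a further GAS match at -245 from the start site, outside the stretch shown. A match of letters is a description of the DNA and does not show that a factor binds there.

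**Figure D1:**
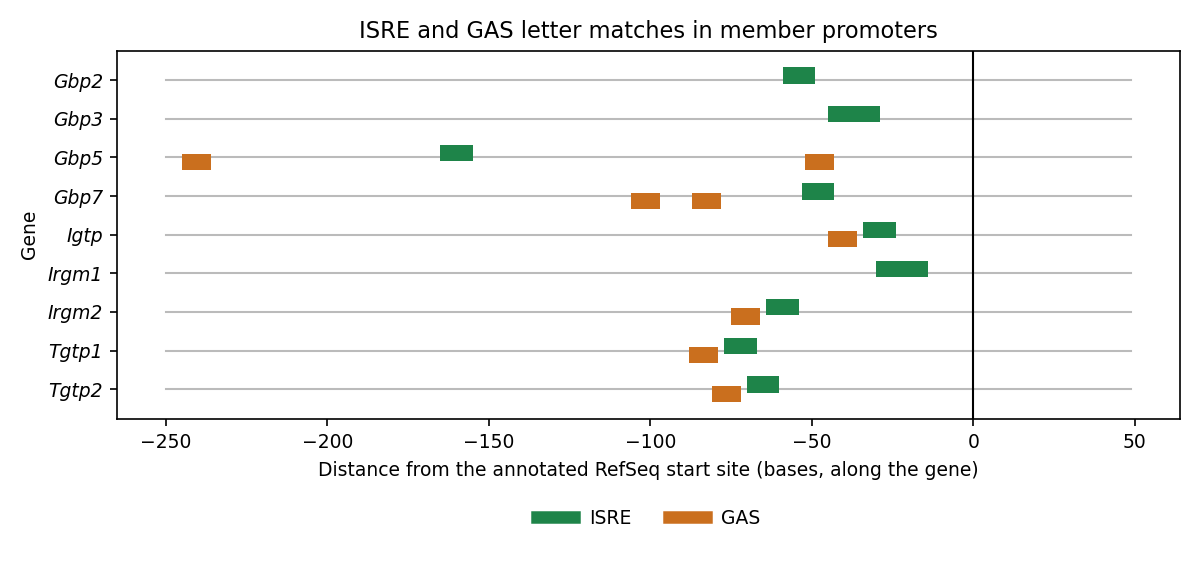
Position of ISRE letters (green) and GAS letters (orange) in the promoter windows of 9 GBP and IRG genes, in bases from the RefSeq start site (vertical line), with the gene running to the right. The 4 promoters with GAS directly before ISRE are Igtp, Irgm2, Tgtp1 and Tgtp2, and every ISRE match lies within 165 bases before the start site.

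The 4 GBP genes lie in a cluster on chromosome 3 of GRCm38, all on the plus strand and with Gbp2b between Gbp3 and Gbp2, with Gbp5 at chr3:142493978-142522344, Gbp7 at chr3:142530342-142550149, Gbp3 at chr3:142560026-142573209 and Gbp2 at chr3:142620602-142638008. On chromosome 11, Irgm1 (chr11:48861968-48871683), Tgtp1 (chr11:48985327-48994172) and Tgtp2 (chr11:49057194-49064206) lie together on the minus strand. Igtp (chr11:58199556-58207591) and Irgm2 (chr11:58199618-58222782) share a second site on the plus strand, where their gene models overlap. Iigp1 lies alone among the 10 on chromosome 18 (chr18:60376027-60392634). All 10 are annotated as protein coding.

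Some of these genes are alike enough that reads may fit more than 1 of them, and how the counting treated such reads is not stated. Of all 100-base windows of the Tgtp1 transcript 83.3% occur in another gene's transcript, 80.0% in Tgtp2, and 80.4% of Tgtp2 windows occur in Tgtp1. Tgtp1 and Tgtp2 are therefore uncertain as single genes and are also given as a sum. For Gbp7 the shared part was 10.2%, nearly all of it with the overlapping model Gm43802, for Igtp 5.67% and for Irgm2 2.48%, with each other. Gbp3 shared 0.929%, and Gbp2, Gbp5, Irgm1 and Iigp1 shared 0 windows.

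All 10 genes were higher in each vector heart of the Tet2+/- group than in the WT heart, and lower in each oridonin heart than in either vector heart. For all genes tested, 35.3% had both vector hearts above WT and 17.8% had both oridonin hearts below both vector hearts. Oridonin hearts below both vector hearts and also above WT were found for 8 of the 10 genes, all but Gbp7 and Iigp1, against 6.54% of all genes. The 10 were chosen on these contrasts, so nothing is read from the counts. In summed level the 10 genes stood at 203 and 287 CPM in oridonin hearts, 380 and 428 CPM in vector hearts and 161 CPM in the WT heart. In bulk tissue, fewer cells of a type and less RNA per cell cannot be told apart.

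**Figure D2:**
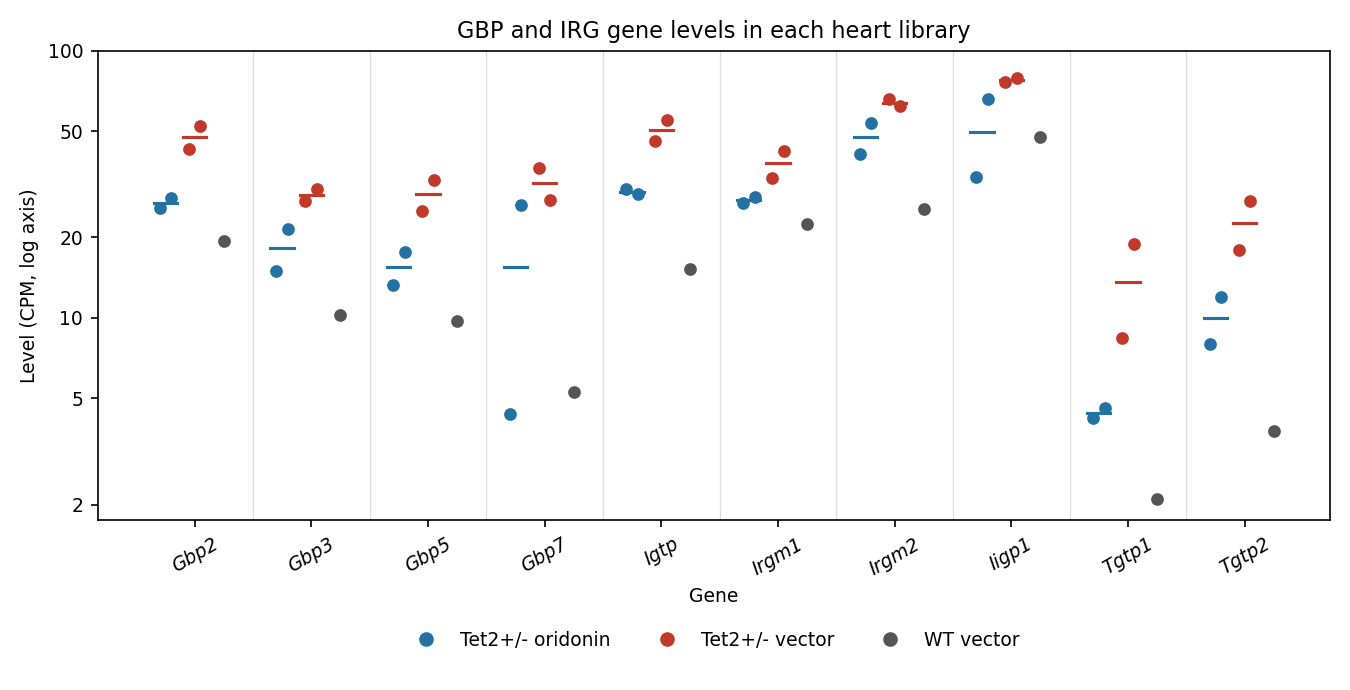
Level of each gene in CPM, on a log axis, in the 2 Tet2+/- oridonin hearts (blue), the 2 Tet2+/- vector hearts (red) and the WT vector heart (grey). Each point is 1 heart and each bar the mean of 2. Vector hearts lie above the WT heart and above the oridonin hearts for every gene, and the oridonin hearts lie far apart for Gbp7 and Iigp1.

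Of the 4 GBP genes, Gbp2, whose protein coats parasite vacuoles in mice, had the highest level per length. It was at 25.8 and 28.1 CPM in oridonin hearts, 43.1 and 52.2 CPM in vector hearts and 19.4 CPM in the WT heart. The groups did not overlap, and the replicates lay closer to each other than to the other groups. The fitted log2 fold change was 1.29 (SE 0.25) for vector over WT and -0.82 (SE 0.20) for oridonin over vector.

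Gbp5, which promotes NLRP3 inflammasome assembly in mouse macrophages, was at 13.3 and 17.6 CPM in oridonin hearts, 25.2 and 32.9 CPM in vector hearts and 9.73 CPM in the WT heart. Gbp3 was at 15.0 and 21.5 CPM in oridonin hearts, 27.4 and 30.4 CPM in vector hearts and 10.2 CPM in the WT heart. In humans GBP3 belongs to the coat of GBPs that recruits caspase-4 to bacterial surfaces. Both genes kept the same order of groups as Gbp2, with the oridonin hearts between the other 2 groups. Over WT, the vector level was 2.99-fold higher for Gbp5 and 2.83-fold for Gbp3 as a ratio of means.

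Gbp7, linked in mice to assembly of the phagocyte oxidase on vacuoles, was split within the oridonin group. It was at 4.38 and 26.6 CPM in oridonin hearts (64 and 387 counts), 36.6 and 27.5 CPM in vector hearts (568 and 422 counts) and 5.30 CPM in the WT heart. Oridonin replicate 1 was below the WT level and oridonin replicate 2 was just under vector replicate 2, a 6.07-fold gap between replicates. Its log2 fold changes were accordingly loose, at 2.58 (SE 0.96) for vector over WT and -1.55 (SE 0.78) for oridonin over vector. Oridonin over WT was 1.02 (SE 0.96). Without oridonin replicate 2 it came to -0.27, and without oridonin replicate 1 to 2.32, so a single heart decides its direction. Gbp7 made up 7.49% and 28.3% of the summed GBP level in oridonin hearts, 27.7% and 19.2% in vector hearts and 11.9% in the WT heart. The other 3 GBPs did not show that split, their oridonin replicates differing by 1.09-fold to 1.43-fold.

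The 3 IRG regulators had oridonin replicates within 1.31-fold of each other. Igtp, also called Irgm3, was at 30.3 and 29.0 CPM in oridonin hearts, 45.8 and 55.2 CPM in vector hearts and 15.3 CPM in the WT heart. Irgm2, which restrains caspase-11 activation in mouse macrophages, was at 41.2 and 53.7 CPM in oridonin hearts, 66.0 and 61.9 CPM in vector hearts and 25.5 CPM in the WT heart. Both stood in the oridonin hearts above the WT level and below the vector level. Igtp had a log2 fold change of 1.72 (SE 0.24) for vector over WT, -0.76 (SE 0.20) for oridonin over vector and 0.95 (SE 0.24) for oridonin over WT.

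Irgm1, which is needed in mice for control of intracellular bacteria and for keeping mitochondria and lysosomes free of attack by the effectors, had the smallest difference from WT among the regulators. It was at 26.9 and 28.4 CPM in oridonin hearts, 33.5 and 42.3 CPM in vector hearts and 22.4 CPM in the WT heart. The order of the groups was again vector, oridonin, WT, with a ratio of means of 1.69 for vector over WT and 0.730 for oridonin over vector. The ratio of means for oridonin over WT was 1.23. The 3 regulators had a median log2 fold change of 1.32 for vector over WT, -0.44 for oridonin over vector and 0.88 for oridonin over WT.

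Among the effectors, Iigp1, known as Irga6, was at 33.6 and 65.7 CPM in oridonin hearts, 76.2 and 78.9 CPM in vector hearts and 47.5 CPM in the WT heart. Its vector replicates were nearly equal, while its oridonin replicates lay on either side of the WT heart, 1.96-fold apart. Its log2 fold change of 0.71 (SE 0.40) for vector over WT was the smallest of the 10, and that for oridonin over WT was -0.01 (SE 0.40).

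Tgtp1, an Irgb6 gene, was at 4.24 and 4.597 CPM in oridonin hearts, 8.43 and 18.9 CPM in vector hearts and 2.10 CPM in the WT heart. Tgtp2, its near copy, was at 7.999 and 12.0 CPM in oridonin hearts, 18.02 and 27.5 CPM in vector hearts and 3.78 CPM in the WT heart. Summing the pair removes the question of which copy a read belongs to. Whether reads that fit both copies were dropped or counted for each is not stated, so the level stays uncertain. The sum came to 12.2 and 16.6 CPM in oridonin hearts, 26.5 and 46.4 CPM in vector hearts and 5.88 CPM in the WT heart. The pair was 4.50-fold and 7.88-fold above WT in the vector hearts and 2.08-fold and 2.82-fold above it in the oridonin hearts. Tgtp2 took 59.2% to 72.3% of the pair in the 5 hearts. Since most windows occur in both copies, this share depends on how such reads were counted. The balance of the copies cannot be read from it. Tgtp1 and Tgtp2 had log2 fold changes of 2.57 (SE 0.52) and 2.55 (SE 0.40) for vector over WT, and of -1.51 (SE 0.42) and -1.18 (SE 0.32) for oridonin over vector. Without vector replicate 1 the oridonin over vector value of Tgtp1 was -2.09, and without vector replicate 2 it was -0.93.

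Between genes, levels can be compared only per length, as CPM per kilobase of annotated exon. On that scale Iigp1 stood at 10.7 and 21.01 in oridonin hearts, 24.4 and 25.2 in vector hearts and 15.2 in the WT heart. Igtp stood at 15.0 and 14.4 in oridonin hearts, 22.7 and 27.3 in vector hearts and 7.57 in the WT heart. Iigp1 was the highest of the 10 per kilobase in the WT heart, and in the vector hearts Iigp1 and Igtp did not differ beyond their replicate spread. Tgtp1 stood at 1.502 and 1.63 in oridonin hearts, 2.99 and 6.70 in vector hearts and 0.743 in the WT heart. Gbp7 stood at 0.779 and 4.73 in oridonin hearts, 6.51 and 4.90 in vector hearts and 0.943 in the WT heart. One or the other of this pair was the lowest of the 10 in every heart, and in the vector hearts they overlapped. The places of Tgtp1 and Tgtp2 in this order are uncertain, since 83.3% and 80.4% of their windows occur in other transcripts. Gbp2, Irgm2 and Irgm1 formed a middle group in the vector hearts, at 14.5 to 20.8 per kilobase with overlapping replicates, followed by Gbp3 and Gbp5, at 8.24 to 10.8, and Tgtp2, at 6.41 and 9.77.

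Across the whole table, limma with Benjamini-Hochberg adjustment over 12734 genes called 0 genes at an adjusted p under 0.05 in any of the 3 comparisons, or 0% of genes tested. Limma with TMM factors and voom weights on recovered counts also called 0. All 10 genes passed the filter on low values and none passed the threshold. Adjusted p ranged over the 10 from 0.293 (Igtp) to 0.610 (Iigp1) for vector over WT and from 0.657 (Igtp) to 0.997 (Iigp1) for oridonin over WT, and was 1.00 for each in oridonin over vector. At an unadjusted p under 0.05, 1221 genes differed for vector over WT, 331 for oridonin over vector and 791 for oridonin over WT. Unadjusted, 9 of the 10 were higher in vector than in WT (5.06% of all genes), 6 lower in oridonin than in vector (1.93%) and 4 higher in oridonin than in WT (2.69%). The spread was estimated from the Tet2+/- replicates alone, with 2 residual degrees of freedom, and the single WT heart is assumed to vary as they do. Each comparison shares hearts with the other 2.

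The median log2 fold change of the 10 was 1.53 for vector over WT, -0.79 for oridonin over vector and 0.85 for oridonin over WT, beside 0.0050, -0.05 and -0.06 over all genes tested. By role, the GBPs had medians of 1.53, -0.86 and 0.73 in that order of comparisons, and the effectors 2.55, -1.18 and 1.06. Each effector median is a value of Tgtp1 or Tgtp2, near copies that are uncertain as single genes. Iigp1, the remaining effector, had 0.71, -0.72 and -0.01, so the medians do not describe the effectors as a class. Heart by heart over WT, the median of the 10 was 0.50 and 1.00 in oridonin replicates 1 and 2 and 1.40 and 1.66 in vector replicates 1 and 2, in log2 units. In oridonin replicate 1 there were 8 of the 10 genes above WT, and 10 of 10 in each other Tet2+/- heart. With vector replicate 1, the heart with atrial markers, left out, the median over the 10 was 1.66 for vector over WT and -0.93 for oridonin over vector. With vector replicate 2 left out in its place, these medians were 1.40 and -0.69.

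**Figure D3:**
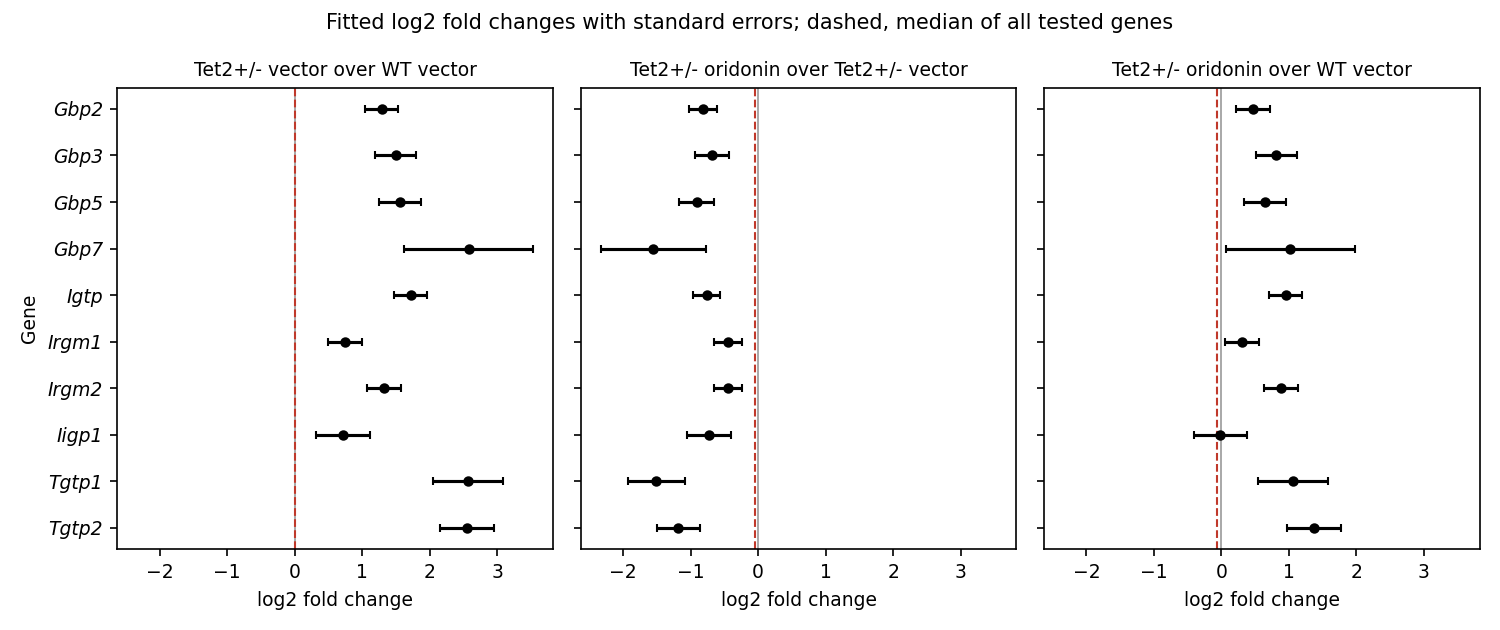
Fitted log2 fold change of each gene with its standard error, for vector over WT, oridonin over vector and oridonin over WT. The dashed line marks the median of all 12734 genes tested, which lies near 0, and all 10 genes lie above 0 in the first comparison and below 0 in the second.

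Replicate spread set how far these values can be read. Between the oridonin hearts the median absolute log2 difference was 0.397 for the 10 genes and 0.231 for all genes tested. Between the vector hearts it was 0.306 for the 10 and 0.348 for all. Of the 10, 9 were lower in oridonin replicate 1 than in replicate 2, with Igtp the exception, and 8 were lower in vector replicate 1 than in replicate 2, with Gbp7 and Irgm2 the exceptions. Of all genes tested, 59.7% were lower in oridonin replicate 1 and 37.8% in vector replicate 1. Tgtp1 had the widest vector pair, differing by 1.16 in log2, and Gbp7 the widest oridonin pair, differing by 2.59.

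The other genes of both families did not all follow. Of 7 further GBP genes in the table, Gbp4 on chromosome 5 had the same order of groups, at 16.8 and 29.0 CPM in oridonin hearts, 39.1 and 45.9 CPM in vector hearts and 11.1 CPM in the WT heart. The gene model of its neighbour Gbp9 overlaps that of Gbp4 on the same strand. Gbp9 was at 22.2 and 33.3 CPM in oridonin hearts, 43.6 and 36.8 CPM in vector hearts and 29.7 CPM in the WT heart. Gbp6 ran the other way against WT, at 8.48 and 17.6 CPM in oridonin hearts, 14.1 and 17.0 CPM in vector hearts and 32.8 CPM in the WT heart. Gbp10 was likewise highest in the WT heart, at 1.03 and 2.40 CPM in oridonin hearts, 0.644 and 1.83 CPM in vector hearts and 6.63 CPM in the WT heart. Gbp6 and Gbp10 share 82.9% and 70.9% of their 100-base windows with other transcripts, so their counts are uncertain as single genes. Gbp2b, Gbp8 and Gbp11 stayed at or under 1.22 CPM and did not pass the filter. None of the 4 tested passed the adjusted threshold in any comparison.

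Of the further IRG genes, Ifi47, known as Irgd, resembled the 10 most in the order of its groups. It was at 6.63 and 7.82 CPM in oridonin hearts, 8.24 and 12.5 CPM in vector hearts and 3.23 CPM in the WT heart. The fused or tandem IRG models on chromosome 11 and their relative on chromosome 18 went by heart rather than by group. F830016B08Rik was at 0.342 and 3.16 CPM in oridonin hearts, 5.28 and 0.848 CPM in vector hearts and 0.449 CPM in the WT heart. 9930111J21Rik2, which shares 40.3% of its windows, was at 0.752 and 6.38 CPM in oridonin hearts, 7.47 and 2.15 CPM in vector hearts and 1.68 CPM in the WT heart. Both were high in oridonin replicate 2 and vector replicate 1 and low in the other 3 hearts, and 9930111J21Rik1 had the same split. Irgq was at 23.5 and 26.8 CPM in oridonin hearts, 27.5 and 21.6 CPM in vector hearts and 35.0 CPM in the WT heart.

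Among other interferon-inducible GTPases, the very large GTPase genes Gvin1 and Gvin2 had the split of Gbp7. Gvin1 was at 1.09 and 4.32 CPM in oridonin hearts, 6.11 and 4.04 CPM in vector hearts and 0.867 CPM in the WT heart. As for Gbp7, oridonin replicate 1 lay near the WT heart and oridonin replicate 2 near the vector hearts. Mx2, a dynamin-like antiviral GTPase, was at 1.09 and 1.37 CPM in oridonin hearts, 2.51 and 2.41 CPM in vector hearts and 2.22 CPM in the WT heart. Fat cell markers had summed levels of 0.410 and 7.20 CPM in oridonin hearts, 21.2 and 0.522 CPM in vector hearts and 1.12 CPM in the WT heart. Their part in the heart-by-heart values above was not tested.

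**Figure D4:**
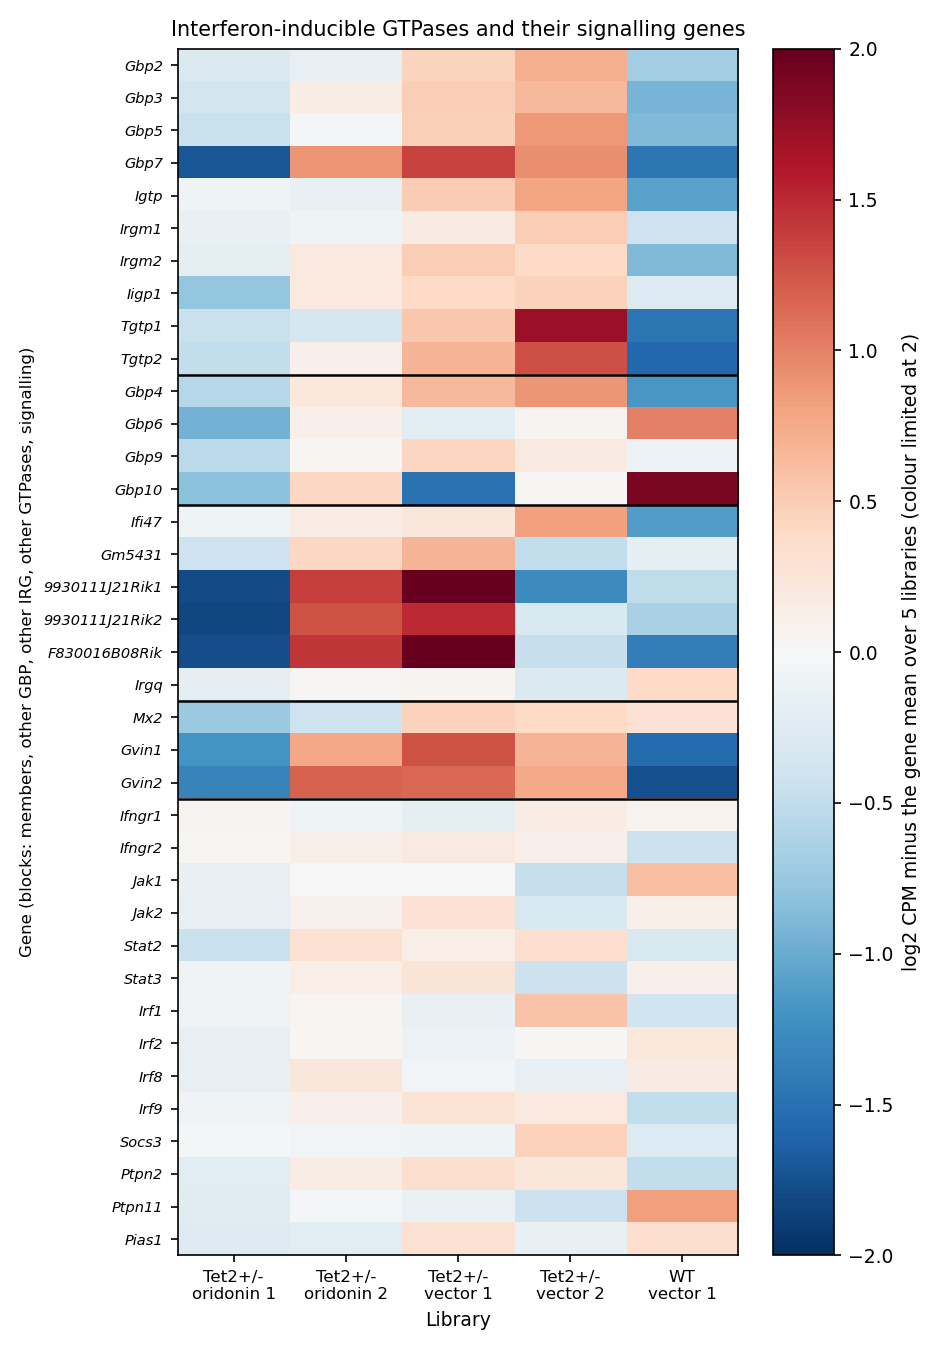
Level of tested genes in each heart as log2 CPM minus the gene's mean over the 5 hearts, for the 10 genes, other GBP and IRG genes, other GTPases and signalling genes of interferon-gamma. Red is above and blue below the gene's mean, and the 10 genes are red in the vector hearts and blue in the WT heart, while Gbp6 and Gbp10 are red in the WT heart.

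The interferon-gamma gene itself was nearly unmeasured. Ifng had 0 and 0 counts in oridonin hearts, 2 and 0 counts in vector hearts and 0 counts in the WT heart, all within the floor of 3 counts, so no difference in it was detectable at this depth. The receptor chain Ifngr1 was at 64.7 and 59.1 CPM in oridonin hearts, 54.7 and 69.5 CPM in vector hearts and 66.0 CPM in the WT heart. The groups overlapped. Ifngr2 was at 149 and 159 CPM in oridonin hearts, 166 and 158 CPM in vector hearts and 108 CPM in the WT heart, which was the lowest. The kinase Jak1 was at 132 and 148 CPM in oridonin hearts, 148 and 107 CPM in vector hearts and 223 CPM in the WT heart, the highest of the 5.

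Irf1 was at 31.2 and 33.3 CPM in oridonin hearts, 29.5 and 48.6 CPM in vector hearts and 24.7 CPM in the WT heart. Its oridonin hearts lay inside the range of the vector hearts. Jak2 was at 26.7 and 31.8 CPM in oridonin hearts, 36.6 and 24.0 CPM in vector hearts and 32.6 CPM in the WT heart, and Socs1, the feedback inhibitor, was under 1.1 CPM in all 5 and did not pass the filter. Of the 15 tested genes of the signalling list, 7 were higher and 8 lower in vector than in WT, with a median log2 fold change of -0.10, and 0 passed the adjusted threshold.

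Of 20 other tested targets of interferon-gamma, 19 were higher in vector hearts than in WT, with a median log2 fold change of 0.68, and 15 were lower in oridonin than in vector, with a median of -0.15. Of all genes tested, 50.39% were higher in vector than in WT and 59.79% lower in oridonin than in vector. None passed the adjusted threshold. B2m, the light chain of MHC class I, was at 351 and 361 CPM in oridonin hearts, 450 and 425 CPM in vector hearts and 216 CPM in the WT heart. Cxcl9, a chemokine that interferon-gamma induces in macrophages, was at 6.36 and 5.63 CPM in oridonin hearts, 6.44 and 6.98 CPM in vector hearts and 2.57 CPM in the WT heart. Tap1, a peptide transporter of class I presentation, was at 23.0 and 17.5 CPM in oridonin hearts, 21.5 and 33.8 CPM in vector hearts and 9.96 CPM in the WT heart. Between oridonin and vector the gap was small for Cxcl9, and Tap1 overlapped. Cd274, the immune checkpoint ligand PD-L1, did not overlap, at 15.6 and 17.0 CPM in oridonin hearts, 21.5 and 35.4 CPM in vector hearts and 12.7 CPM in the WT heart. Nor did Psmb8, an immunoproteasome subunit, at 14.6 and 12.4 CPM in oridonin hearts, 16.1 and 25.5 CPM in vector hearts and 9.41 CPM in the WT heart. Ciita, the class II regulator, ran the other way, at 2.05 and 3.16 CPM in oridonin hearts, 1.87 and 1.11 CPM in vector hearts and 2.83 CPM in the WT heart. The 22 tested type I interferon genes had medians of 0.52 for vector over WT and -0.09 for oridonin over vector, with 18 higher in vector than in WT.

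The partners of the GTPases differed in direction. Of the 14 genes of ATG8 conjugation, 4 were higher and 10 lower in vector than in WT, with a median of -0.18, and Sqstm1, an autophagy adaptor, had a log2 fold change of -1.17 (SE 0.26). Of 7 tested inflammasome and pyroptosis genes, 6 were higher in vector than in WT (50.39% of all genes tested), with a median of 1.07. Among them, the pore former Gsdmd was at 1.33 (SE 0.30) and the adaptor Pycard at 1.61 (SE 0.46). All 7 inflammasome genes were lower in oridonin than in vector (59.79% of all genes tested), with a small median of -0.17. None of these genes passed the adjusted threshold.

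Cell type markers were summed in each heart for cells that could carry these transcripts. The 16 macrophage and monocyte markers, none of them at 0 in any heart, came to 452 and 449 CPM in oridonin hearts, 730 and 495 CPM in vector hearts and 393 CPM in the WT heart. Of the 16, 13 had both vector hearts above WT (35.3% of all genes tested) and 5 had both vector hearts above both oridonin hearts (17.8%). In 4 of those 5 the oridonin hearts were also above WT (6.54% of all genes tested). The 16 had a median log2 fold change of 0.78 for vector over WT and -0.23 for oridonin over vector. Lyz2, the most abundant, was at 171 and 173 CPM in oridonin hearts, 338 and 215 CPM in vector hearts and 179 CPM in the WT heart. Without it the sums were 282 and 276 CPM in oridonin hearts, 392.4 and 281 CPM in vector hearts and 214 CPM in the WT heart, and oridonin and vector hearts overlapped. Within the vector group the marker sum was higher in replicate 1, where 8 of the 10 GTPase genes were lower. That heart also differed from replicate 2 in its atrial and fat cell markers. T and NK cell markers, 16 of 17 listed, came to 18.6 and 13.0 CPM in oridonin hearts, 16.8 and 14.4 CPM in vector hearts and 13.0 CPM in the WT heart. Thy1, which other cells also carry, made up most of that sum at 6.79 to 11.3 CPM. The T cell receptor complex gene Cd3e, named after its values were seen, had 4 and 1 counts in oridonin hearts, 4 and 4 counts in vector hearts and 5 counts in the WT heart. Endothelial markers came to 1967 and 2039 CPM in oridonin hearts, 1857 and 1939 CPM in vector hearts and 1851 CPM in the WT heart. The part of macrophage content in the GTPase levels was not tested.

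Fibroblast markers, another cell type that responds to interferon-gamma, had summed levels of 2052 and 1908 CPM in oridonin hearts, 3307 and 3429 CPM in vector hearts and 2975 CPM in the WT heart. All 10 markers were lower in both oridonin hearts than in both vector hearts, against 17.8% of all genes tested. The 10 GTPase genes were too, but they were chosen with this contrast known. Of these markers, 8 had both vector hearts above WT (35.3% of all genes tested), with a median log2 fold change of 0.80 for vector over WT. That is the direction of the GTPase genes. For oridonin over WT the markers differed from the GTPases. There 8 markers were lower (56.22% of all genes tested), with a median of -0.21, and the oridonin sums lay below the WT sum.

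The 5 genes outside the 10 whose profile over the 5 hearts lay nearest the mean profile of the 10 were Zfp951, Kdelr3, Batf2, Gbp4 and Fgf18. Likeness was the root mean square difference of centred log2 CPM, from 0.0476 for Zfp951 to 0.149 for Fgf18, over 5 hearts and 12734 genes. Batf2, an AP-1 family factor induced by interferon-gamma, differed by 0.113. Among the 10 themselves Gbp5 lay nearest the mean at 0.0732 and Gbp7 farthest at 0.772. With 5 hearts, many genes can lie near any profile.

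Genes outside the 10 whose promoter window held ISRE letters, 358 of those tested, had a median log2 fold change of 0.10 for vector over WT, against -0.01 for the 9495 without. For oridonin over vector the medians were -0.11 and -0.05. With both ISRE and GAS letters, 49 genes had medians of 0.22 for vector over WT and -0.16 for oridonin over vector. These shifts are small beside the values of the 10 and are given as a description.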

How the data were processed

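The labels' protocols describe poly-A selection of RNA from each heart and a NEBNext Ultra library kit, with no statement on strand. Unless strand was kept, overlapping genes cannot be separated. The build was mm10, per the submitters' processing notes. No aligner, counting tool or annotation is given in the labels or processing notes.

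What the authors deposited is 1 table of log2 values, which follow log2 of (count + 0.5) scaled to the library total as CPM. In each Tet2+/- column the deposited log2 value mixes the heart's own value, weighted 0.75, with its replicate's, weighted 0.25. Undoing this returned whole counts, within 0.01, for 99.92% to 99.94% of genes, against 9.06% to 10.37% as deposited. The WT column does not give whole counts (Gbp2 comes to 291.6) and was used as deposited. Whether it too is a mix is not known, and this bears on every WT level and every comparison with WT. Deposited replicates are thus closer to each other than the hearts were, which makes tests on them too lenient. Undoing the mix leaves group means on the log2 scale as they were. Totals were 14626806 and 14574823 in oridonin libraries, 15535778 and 15334618 in vector libraries and 15002794 in WT. Genes of the mitochondrial genome took 30.2% and 28.2% of counts in oridonin, 26.8% and 29.7% in vector and 23.6% in WT libraries. Floors cover counting error only.

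A gene was kept at 1 CPM or more in 2 or more libraries (12734 genes, with all 10 described) and fitted with limma 3.58.1 in R 4.3.3, trend and robust empirical Bayes, group as the only term, all 5 libraries in 1 fit. P-values were adjusted by Benjamini-Hochberg at 0.05. Nothing in the labels says whether replicates were separate animals, so p-values speak only of spread among these libraries. The script was tested on simulated data. Titles give 1 or 2 months where the time label gives 2 months for all, and that number served only as a replicate number. Same-numbered libraries did not deviate together (r = -0.296 over 12734 genes). Alternatives were the deposited values, TMM with voom, totals without the mitochondrial genome, other filters, another pseudocount, each Tet2+/- library left out and a replicate block.

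The 10 genes and all lists were chosen with earlier results of these data known. Named genes were the 10, fixed signalling genes, any GBP, IRG or other GTPase gene listed, up to 4 per other list by unadjusted p, and the 5 nearest profiles. Gm12185, Tet2 and Cd3e fall outside that rule. One signalling gene of that rule is not reported here. Coordinates, exon lengths and 100-base windows come from GENCODE on GRCm38, promoters from RefSeq on GRCm38.p6.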

Additional observations from a re-analysis of the deposited data

How the results depend on the processing

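The main limit is 1 WT heart and 2 residual degrees of freedom. Against 0 genes called in each comparison, the values as deposited gave 2312 for vector over WT, 76 for oridonin over vector and 996 for oridonin over WT. These include 9 of the 10 GTPase genes (all but Iigp1) in the first, Gbp2 and Igtp in the second and Gbp3, Igtp, Irgm2 and Tgtp2 in the third. The replicate block gave 10, 9 and 6 genes in that order. The numbers do not pair the samples. A block with crossed numbers, added after the data were seen because of the negative correlation of same-numbered libraries, gave 432, 44 and 184, with 7, 0 and 1 of the 10 GTPase genes among them. Leaving out 1 library at a time gave 2 to 107 genes for vector over WT, 3 to 32 for oridonin over vector and 0 to 24 for oridonin over WT. The cause was not tested. TMM with voom, totals without the mitochondrial genome, no filter, a filter at 5 CPM and a pseudocount of 2 each gave 0.

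The median log2 fold change of the 10 genes stayed between 1.40 and 1.66 for vector over WT and between -1.03 and -0.57 for oridonin over vector with 1 library left out. For oridonin over WT it ranged from 0.50 to 1.00, the lower value without oridonin replicate 2, and was 0.56 with the replicate block. Totals without the mitochondrial genome moved the median of all genes for vector over WT to 0.1003. For oridonin over vector, leaving out 1 library moved some genes by over 1.5 times from the fit of all 5 libraries, with the sign kept. These were Gbp3 (-0.94 to -0.42), Gbp7 (-2.85 to -0.26), Irgm1 (-0.61 to -0.28), Irgm2 (-0.63 to -0.25), Iigp1 (-1.21 to -0.24) and Tgtp1 (-2.09 to -0.93). Gbp5 (-1.12 to -0.71) and Tgtp2 (-1.48 to -0.88) also varied, but moved less from that fit. Iigp1 for oridonin over WT changed sign to 0.05 with TMM, 0.10 without the mitochondrial genome and 0.47 without oridonin replicate 1. For Gbp7, oridonin over vector was -2.85 without oridonin replicate 2, and oridonin over WT was 2.32 without oridonin replicate 1. Leaving out an oridonin library keeps each vector over WT fold change as it was, Gbp7 at 2.58, and alters only the estimated spread. At these depths Ifng, Socs1 and most T cell markers are too low to compare.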
